A study of Homo sapiens with 10 samples.

Results

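Cyclins are the activating subunits of cyclin-dependent kinases (CDKs), and the genes of both families, with those named CDKN after the CDK inhibitors, were compared between clones of PC-3, an established human cell line from a prostate cancer metastasis. The genes were taken by name: a symbol in the array's platform table of CDK followed by a number, CDKN followed by further characters, or CCN followed by A to L, O, T or Y with an optional number. Pseudogenes and the matricellular genes CCN1 to CCN6 were left out, and a gene with several probe sets was represented by that of highest mean. This gave 47 genes of the 14884 with a named probe set, of which 23 were cyclin genes, 18 kinase genes and 6 CDKN-named genes. One group of 5 clones (numbers 1, 4, 5, 7 and 13) carried CENPU in a p-Lenti vector, and the other group of 5 (numbers 1 to 5) carried the vector with no insert. Both groups had gone through the same antibiotic selection, named blastocydin in the labels, and were grown as clonal isolates, so every array stands for 1 clone. CENPU encodes a subunit of the centromere-associated network on which the kinetochore is built. The comparison asked which transcripts differ when PC-3 clones overexpress it.

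Cyclin levels rise and fall through the cell cycle, and each cyclin directs its kinase to a set of substrates at the time it is present. D-type cyclins with CDK4 and CDK6, then E-type cyclins with CDK2, carry cells through G1 by phosphorylating the retinoblastoma protein, which releases E2F transcription factors. Cyclin A then acts in S phase, and cyclin B with CDK1 drives mitosis. A further branch of the families does not cycle and phosphorylates RNA polymerase II and its cofactors during transcription.

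CENPU itself was at 9.34 ± 0.43 (SD, n = 5) on the log2 scale in CENPU clones and at 6.26 ± 0.29 (SD, n = 5) in control clones, and the groups did not overlap. All expression values below are RMA log2 values, in which a difference of 1 is a doubling, and differences are CENPU minus control. Over genes, pairs of CENPU arrays correlated at 0.954 to 0.991, pairs of control arrays at 0.976 to 0.993 and mixed pairs at 0.916 to 0.986. The epithelial keratin genes KRT18 and KRT19 lay between 10.2 and 11.2 in all clones, KRT8 between 6.36 and 7.07, and EPCAM between 5.74 and 7.62. The androgen-responsive genes KLK2 and KLK3, known to be low in PC-3, lay between 5.33 and 5.78, and the fibroblast genes DCN and LUM between 2.55 and 3.13. The endothelial genes PECAM1 and VWF lay at 4.88 to 6.21 and 4.18 to 4.77, and the leukocyte gene CD14 at 4.01 to 4.52. None of the 11 measured marker genes of epithelial, androgen-responsive, leukocyte, fibroblast or endothelial cells passed in limma, of which 1, EPCAM, had an unadjusted p under 0.05.

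Of the 47 genes, 6 rose in CENPU clones (CCNG1, CCNH, CCNB2, CDK19, CCNI and CDK12), 5 fell (CCND3, CCNF, CDK5, CCNL2 and CDK2), and 36 did not pass (limma, Benjamini-Hochberg over 16098 probe sets, adjusted p under 0.05). The 11 that passed were 23.4% of the genes, where 10.1% of all 14884 genes passed. By direction, 12.8% rose against 5.31% of all genes, and 10.6% fell against 4.79%. The groups did not overlap in 8 genes, 17.0%, against 9.73% of all genes. The median absolute log2 difference was 0.39 here and 0.18 over all genes, beside median standard errors of 0.19 and 0.13. The median log2 difference was 0.10, with 28 genes above 0 and 19 below, and that of all genes was -0.02. Since the genes were proposed with results of these arrays known, these shares describe the list and do not test it. In RNA from a whole clone, fewer cells of a cycle phase and less RNA per cell cannot be told apart.

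**Figure D1:**
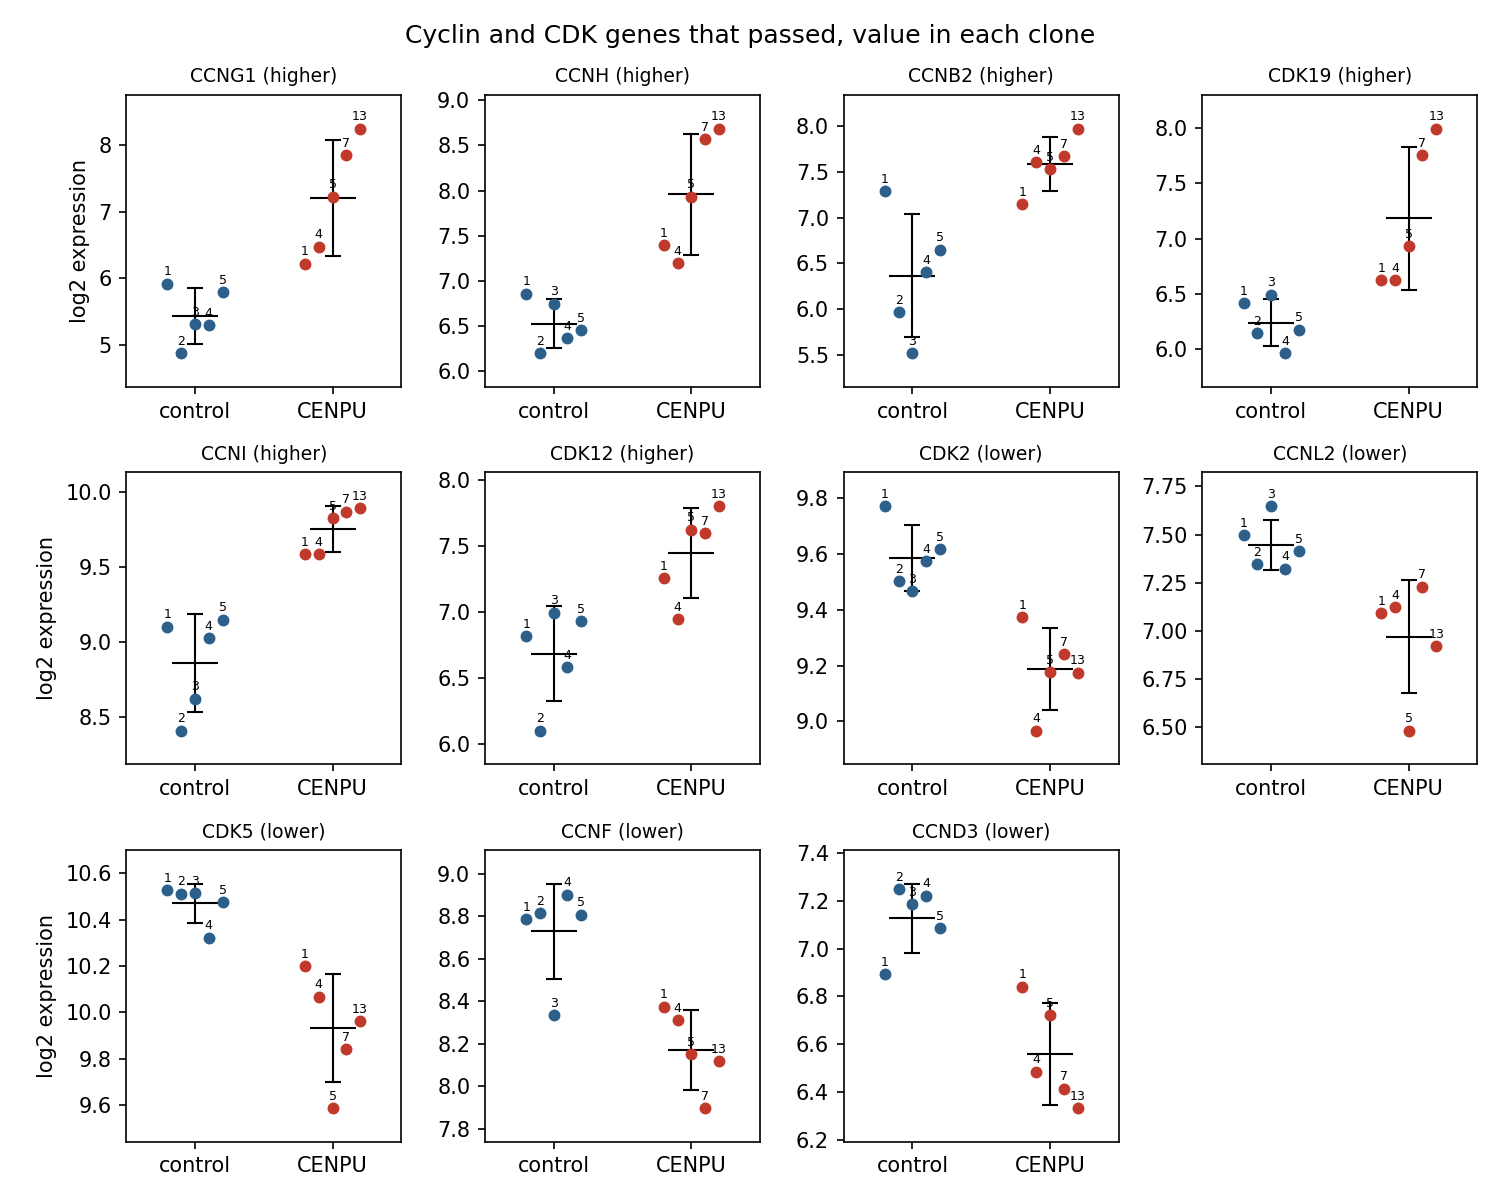
Log2 expression (y axis) of the 11 cyclin and CDK genes that passed, in the 5 control and 5 CENPU clones; points are clones with their numbers, bars the mean ± SD. CCNG1, CCNH, CDK19, CCNI, CDK2, CCNL2, CDK5 and CCND3 show no overlap between the groups, while 1 control clone reaches into the CENPU range of CCNB2, CDK12 and CCNF.

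Among the cyclins and kinases of G1, 2 of 8 fell, 0 rose and 6 did not pass. That is 25% that fell and 0% that rose, against 4.79% and 5.31% of all genes. CCND3, which encodes the D-type cyclin D3, was at 6.84, 6.49, 6.72, 6.42 and 6.33 in CENPU clones 1, 4, 5, 7 and 13. In control clones 1 to 5 it was at 6.89, 7.25, 7.18, 7.22 and 7.08. Every CENPU clone lay below every control clone, with CENPU 1 and control 1 closest. CCND3 fell 1.48-fold, by 0.57 on the log2 scale (standard error, SE, 0.12, limma adjusted p = 0.0151). CDK2, the kinase of cyclins E and A, was at 9.37, 8.97, 9.18, 9.24 and 9.17 in CENPU clones and at 9.77, 9.50, 9.47, 9.57 and 9.62 in controls. Again the groups did not overlap, and CDK2 fell 1.32-fold, by 0.40 on the log2 scale (SE 0.10, limma adjusted p = 0.0276).

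CCNE1, the gene of cyclin E1, had a larger difference than CDK2 but did not pass. Its values were 7.39, 7.32, 7.85, 7.02 and 7.35 in CENPU clones and 8.30, 7.70, 8.55, 7.63 and 8.02 in controls, and CENPU 5 lay above controls 2 and 4. The difference was -0.65 (SE 0.20, limma adjusted p = 0.0550). The paralogue CCNE2 split the CENPU clones, at 5.59, 5.37 and 6.05 in clones 1, 4 and 5 but 6.52 and 7.16 in clones 7 and 13, against 6.10 to 6.86 in controls. Its difference of -0.46 had a 95% interval from -1.11 to 0.19. Without control 2, CENPU 7 and CENPU 13, clones at the ends of a trend described below, it was -1.05 and passed (limma adjusted p = 0.0113). For CCNE2 these are the lowest control and the highest CENPU clones, so a larger fall follows from their removal.

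The other G1 genes differed little. CCND1, the most studied D-type cyclin gene, lay between 10.23 and 10.45 in CENPU clones and between 9.96 and 10.34 in controls, a difference of 0.14 with a 95% interval from -0.06 to 0.34. CDK4 and CDK6, the kinases of D-type cyclins, had differences of -0.18 (95% interval -0.37 to 0.01) and 0.20 (-0.08 to 0.47). CCND2 had -0.07 in its brighter probe set and -0.19 in its dimmer one, and neither passed. The fall of CCND3 was larger than the difference of CCND1: their log2 ratio was lower in CENPU clones by 0.71 on the log2 scale (exact two-sided permutation p = 0.00794, adjusted over 19 pairs 0.0302). Leaving out any control clone, or CENPU 4, 7 or 13, gave an adjusted p of 0.0503 to 0.0603 for that ratio. The 19 pairs, here and below, were chosen after the values of single genes were seen. Their permutation p-values therefore describe the pairs and do not test them. The call of CDK2 was lost without CENPU 5, 7 or 13 or control 1, 2, 4 or 5 (limma adjusted p up to 0.0647), and that of CCND3 was kept whichever single clone was left out. Without control 2, CENPU 7 and CENPU 13 together, CCND3 differed by -0.41 and CDK2 by -0.44, and neither passed (limma adjusted p = 0.119 and 0.103).

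**Figure D2:**
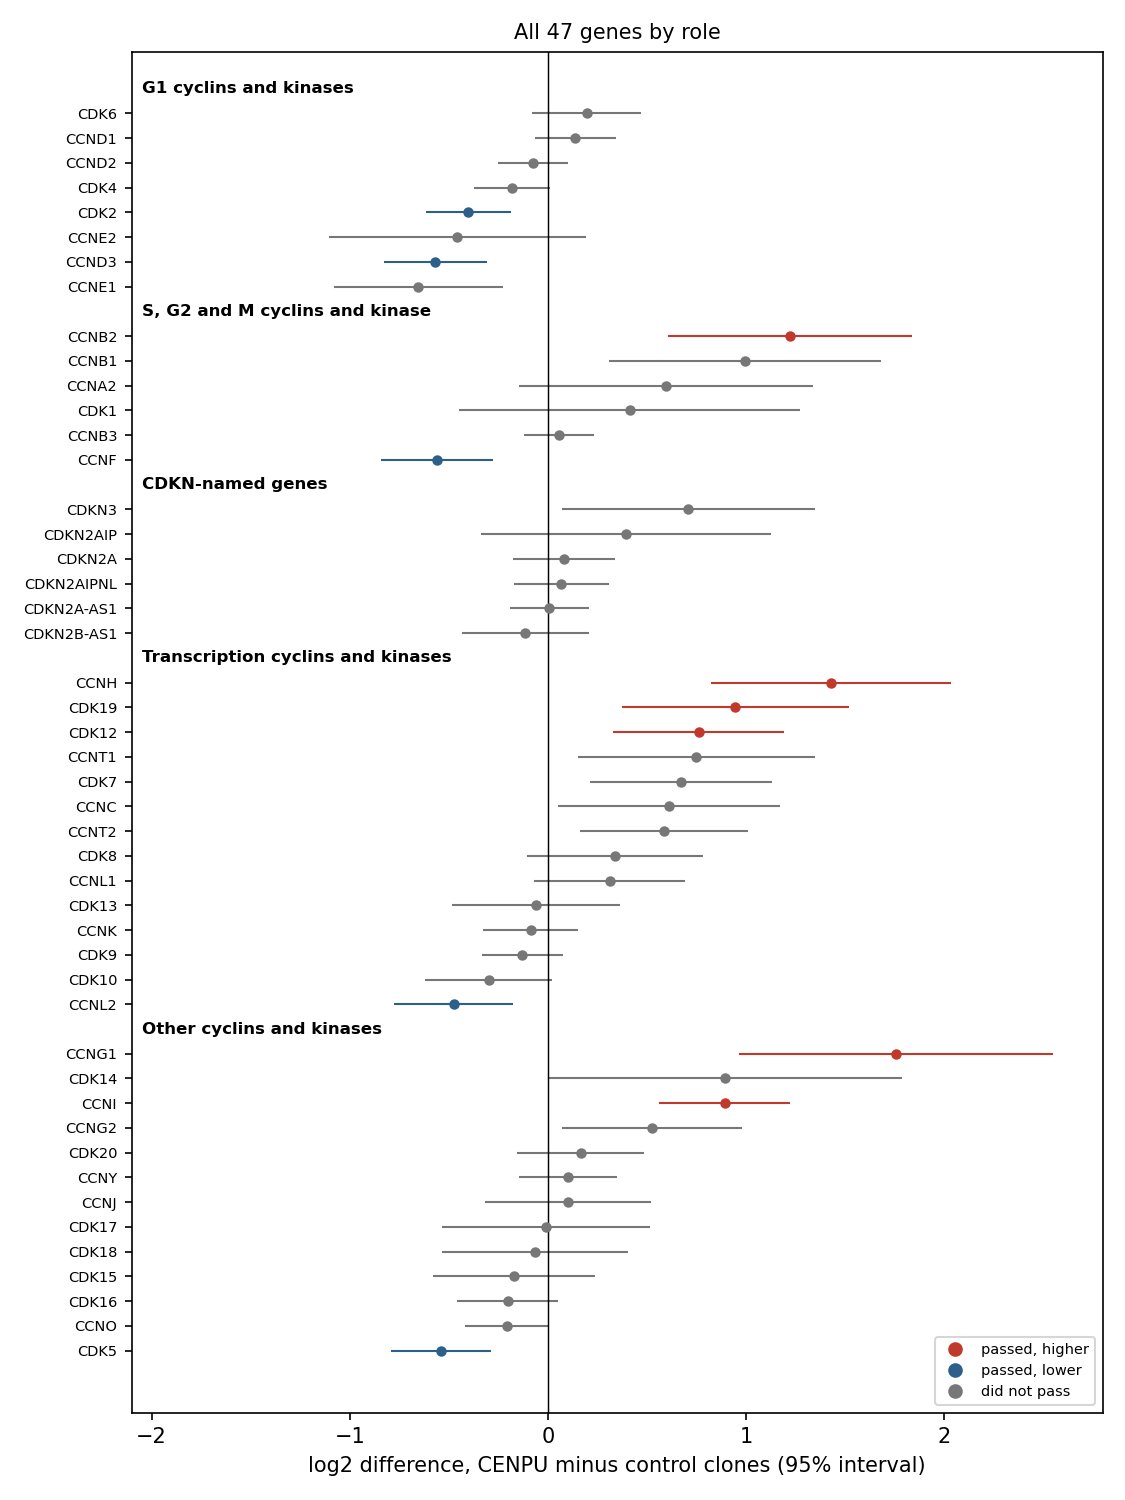
Log2 difference between CENPU and control clones (x axis) with its 95% interval from limma for all 47 genes, in blocks by role; red and blue mark genes that passed. Most G1 genes lie near or below 0, most transcription genes above it, and the 6 CDKN-named genes include none that passed.

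In the S, G2 and M block 1 of 6 genes rose, 1 fell and 4 did not pass. That is 16.7% each way, against 5.31% and 4.79% of all genes, and each share is 1 gene. CCNB2, which encodes the Golgi-associated mitotic cyclin B2, was at 7.15, 7.61, 7.53, 7.67 and 7.98 in CENPU clones. In controls it was at 7.29, 5.96, 5.52, 6.40 and 6.65. Control 1 stood above CENPU 1, and the other controls were below all CENPU clones. The rise was 2.33-fold, or 1.22 log2 units (SE 0.28, limma adjusted p = 0.0222). CCNB1, the gene of the main CDK1 partner in mitosis, followed the same order of clones among controls, at 8.49, 6.75, 6.62, 7.45 and 8.02, against 8.42, 8.47, 8.19, 8.53 and 8.69 in CENPU clones. Its difference of 0.99 had a standard error of 0.31 and did not pass (limma adjusted p = 0.0653). The ratio of CCNB2 to CCNB1 differed by 0.23 on the log2 scale (exact two-sided permutation p = 0.143, adjusted 0.194).

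CCNF went the other way. Its product, cyclin F, binds no CDK and instead serves as the substrate receptor of an SCF ubiquitin ligase. It was at 8.38, 8.31, 8.15, 7.90 and 8.12 in CENPU clones and at 8.79, 8.82, 8.34, 8.90 and 8.81 in controls, where only control 3 reached the CENPU range. CCNF fell 1.47-fold, by 0.56 on the log2 scale (SE 0.13, limma adjusted p = 0.0221). CDK1, the mitotic kinase gene, ranged more widely among CENPU clones than between the groups. It was at 7.57 and 6.97 in CENPU 1 and 4, 8.20 in CENPU 5, and 8.87 and 9.20 in CENPU 7 and 13, against 7.15 to 8.23 in controls, and its difference of 0.41 had a 95% interval from -0.45 to 1.28. CCNA2, encoding cyclin A2, had a difference of 0.60 (95% interval -0.14 to 1.34), with control 2 lowest at 7.60 and CENPU 13 highest at 9.77. CCNB3, at 2.85 to 3.10 in all clones, was the dimmest of the genes and had a difference of 0.06. The call of CCNB2 was lost without CENPU 7, CENPU 13, control 2 or control 4 (limma adjusted p up to 0.0575), and that of CCNF without CENPU 7 or control 2, 4 or 5 (up to 0.0610). With control 2, CENPU 7 and CENPU 13 all left out, CCNB2 differed by 0.96 and CCNF by -0.43, and neither passed (limma adjusted p = 0.156 and 0.155).

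The promoters of these genes are shown because transcripts of G2 and M phase share known elements, namely CCAAT boxes bound by NF-Y and the cell cycle homology region (CHR) bound by the DREAM and MYB-MuvB complexes, and because CCNB2 and CCNF differed in opposite directions. Each sequence is the 250 bases before the annotated start on the coding strand, from RefSeq on GRCh38.p14, and capitals mark CCAAT or a CHR word (TTTGAA or TTCGAA, either strand).
CCNB2 promoter, chr15:59104896-59105145, plus strand: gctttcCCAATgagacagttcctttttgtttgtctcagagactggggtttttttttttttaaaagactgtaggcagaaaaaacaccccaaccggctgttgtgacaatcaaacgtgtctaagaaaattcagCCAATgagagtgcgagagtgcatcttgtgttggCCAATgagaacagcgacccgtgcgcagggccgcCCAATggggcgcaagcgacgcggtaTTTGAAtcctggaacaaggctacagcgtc
CCNB1 promoter, chr5:69166900-69167149, plus strand: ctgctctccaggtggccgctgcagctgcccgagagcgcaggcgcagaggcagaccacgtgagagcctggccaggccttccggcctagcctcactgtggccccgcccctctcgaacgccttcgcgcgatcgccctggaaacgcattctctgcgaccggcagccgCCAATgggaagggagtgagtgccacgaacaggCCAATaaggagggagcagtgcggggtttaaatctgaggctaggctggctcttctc
CCNF promoter, chr16:2429197-2429446, plus strand: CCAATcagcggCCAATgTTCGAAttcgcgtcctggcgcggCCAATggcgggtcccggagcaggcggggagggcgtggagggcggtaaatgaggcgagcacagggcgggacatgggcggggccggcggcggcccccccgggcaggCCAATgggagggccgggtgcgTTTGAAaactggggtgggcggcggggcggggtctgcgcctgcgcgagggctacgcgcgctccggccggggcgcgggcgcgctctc

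CCNB2 held 4 CCAAT boxes, the closest 54 bases before the start, and 1 CHR word that begins 29 bases before it. CCNF, which fell, held 4 CCAAT boxes and 2 CHR words, and CCNB1 held 2 CCAAT boxes and 0 CHR words. Only TTTGAA and TTCGAA were searched as CHR words, so a count of 0 does not show that a promoter lacks the element. Promoter sequence was matched for 42 of the 47 genes (not CCND1, CCND2, CCNE2, CDK2 and CDKN2A-AS1). CCAAT, on either strand, was in 17 of the 42 windows, 40.5%, and in 32.0% of all 35116 promoter windows of the same length. A CHR word was in 6 of 42, 14.3%, and in 14.3% of all windows. The E2F words TTTCCCGC, TTTCGCGC, TTTGCCGC and TTTGGCGC, on either strand, were in 4 of 42, 9.52%, and in 2.79% of all windows. The 4 genes were CCNO, CDK10, CDK19 and CDKN2B-AS1, and CCNB1, CCNB2 and CCNF had none. The 42 were 1 window per gene, while the 35116 counted every entry without a filter on gene type, so the sets are unlike. Of the genes that rose, 3 of 6 held CCAAT and 2 of 6 a CHR word (CCNB2 and CDK19). Of the 4 matched genes that fell, 2 held CCAAT and 1 a CHR word. These letters describe the windows and do not show that a factor binds there.

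None of the 6 CDKN-named genes passed in limma, where 10.1% of all genes did, and 1 of them, CDKN3, had an unadjusted p under 0.05. CDKN3 encodes a phosphatase that removes the activating phosphate from CDKs, and its transcript is known to peak in mitosis. It was at 10.2 in CENPU 1 and 7, 10.5 in CENPU 13 and 9.22 and 9.26 in CENPU 4 and 5, against 8.66 to 9.75 in controls, a difference of 0.71 with a 95% interval from 0.07 to 1.35 (limma adjusted p = 0.142). CDKN2A, the gene of the inhibitor of CDK4 and CDK6 known as INK4A and of ARF, lay between 6.20 and 6.76 in all clones and differed by 0.08 (95% interval -0.17 to 0.34). The antisense transcripts CDKN2A-AS1 and CDKN2B-AS1 differed by 0.01 and -0.11. CDKN2AIP, which encodes a protein that binds ARF, had -0.34 to 1.13 as its interval, and CENPU 7 and 13 (7.25 and 7.37) stood above every other clone. CDKN2AIPNL, its shorter relative, differed by 0.07. CDKN1A, CDKN1B and CDKN1C, the CIP and KIP inhibitor genes, and CDKN2B, CDKN2C and CDKN2D, further genes of the INK4 group, were not analysed here.

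The transcription branch held 14 genes, of which 3 rose, 1 fell and 10 did not pass. That is 21.4% that rose and 7.14% that fell, against 5.31% and 4.79% of all genes. The median difference over the 14 was 0.46 log2 units, against -0.02 over all genes. The median genomic span of the 14 was 35776.5 bp, against 20711.5 bp over all genes, and the trend of differences with span is given below. CCNH encodes cyclin H, which with CDK7 and MNAT1 forms the CDK-activating kinase, a module of the transcription factor TFIIH that phosphorylates both cell cycle CDKs and RNA polymerase II. It was at 7.40, 7.20, 7.93, 8.57 and 8.68 in CENPU clones and at 6.86, 6.20, 6.75, 6.37 and 6.45 in controls. The groups did not overlap, and CENPU 7 and 13 were highest. CCNH rose 2.69-fold, or 1.43 log2 units (SE 0.28, limma adjusted p = 0.0119). Its kinase partner CDK7 was at 6.75, 6.88, 7.15, 7.79 and 7.74 in CENPU clones and 6.80, 6.28, 6.81, 6.41 and 6.64 in controls, a difference of 0.67 (SE 0.21) that did not pass (limma adjusted p = 0.0639). CENPU 1 lay below controls 1 and 3. The ratio of CCNH to CDK7 was higher in CENPU clones by 0.76 on the log2 scale (exact two-sided permutation p = 0.00794, adjusted 0.0302). MNAT1 was not analysed here.

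CDK19 and CDK8 are alternative kinases of the Mediator kinase module, which they form with cyclin C, MED12 and MED13. CDK19 was at 6.62, 6.62, 6.93, 7.75 and 7.995 in CENPU clones and at 6.42, 6.14, 6.49, 5.96 and 6.18 in controls. The groups were separated by a gap of 0.13 between CENPU 1 and control 3, and the rise was 1.93-fold, a log2 difference of 0.95 (SE 0.26, limma adjusted p = 0.0425). CDK8 differed by 0.34 (95% interval -0.10 to 0.79), and the change of CDK19 relative to CDK8 was 0.60 (exact two-sided permutation p = 0.0238, adjusted 0.0646). CCNC, the cyclin C gene, was dim, at 4.15 to 4.41 in controls, and reached 4.97, 5.36 and 5.65 in CENPU 5, 7 and 13, while CENPU 1 and 4 were at 4.34 and 4.12. Its difference was 0.61 (limma adjusted p = 0.147).

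CDK12 and CDK13 both partner with cyclin K and phosphorylate elongating RNA polymerase II. CDK12, whose activity is known to sustain expression of long DNA repair genes, was at 7.26, 6.95, 7.63, 7.60 and 7.80 in CENPU clones and at 6.82, 6.10, 7.00, 6.58 and 6.93 in controls. CENPU 4 lay just below control 3, and the other CENPU clones were above all controls. CDK12 rose 1.69-fold (log2 difference 0.76, standard error 0.20, limma adjusted p = 0.0331). CDK13 differed by -0.06 (95% interval -0.48 to 0.37) and CCNK by -0.09 (-0.33 to 0.15). CDK12 changed relative to CDK13 by 0.82, with a gap of 0.40 between the groups in that ratio, and the ratio of CCNK to CDK12 was lower by 0.85 (exact two-sided permutation p = 0.00794 and adjusted 0.0302 for each).

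CCNL2, encoding cyclin L2, which partners with CDK11 in pre-mRNA splicing, was the transcription gene that fell. It was at 7.09, 7.12, 6.48, 7.23 and 6.92 in CENPU clones and at 7.496, 7.35, 7.65, 7.32 and 7.41 in controls, with no overlap. The fall was 1.39-fold, a log2 difference of -0.48, and sat at the threshold (SE 0.14, limma adjusted p = 0.0499). The paralogue CCNL1 differed by 0.31 (95% interval -0.07 to 0.69), and CDK11A, whose symbol ends in a letter and so lies outside the naming rule, by 0.29. Neither passed, and the ratio of CCNL2 to CCNL1 was lower by 0.79 (exact two-sided permutation p = 0.00794, adjusted 0.0302). CCNT1 and CCNT2, the cyclins of the elongation factor P-TEFb, had differences of 0.75 (95% interval 0.15 to 1.35) and 0.59 (0.16 to 1.01). Their kinase CDK9 had -0.13 (-0.33 to 0.07), and neither cyclin passed (limma adjusted p = 0.104 and 0.0766). CDK10 differed by -0.30 and did not pass.

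The CCNH call held whichever clone was left out, but without control 2, CENPU 7 and CENPU 13 together its difference was 0.90, and CDK12 (0.45), CDK19 (0.46) and CCNL2 (-0.57) failed to pass (limma adjusted p of 0.0988 to 0.190). The calls of CDK19 and CCNL2 were kept only without CENPU 1 or CENPU 4 and lost without any other clone, and that of CDK12 was lost without CENPU 5, 7 or 13 or control 2, 4 or 5 (limma adjusted p up to 0.109 over these fits). Median centring of the arrays, or testing all rows of the table, also ended the calls of CDK19 and CCNL2. Leaving out any 1 control raised the adjusted exact permutation p of the ratios above from 0.0302 to between 0.0503 and 0.0603.

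**Figure D3:**
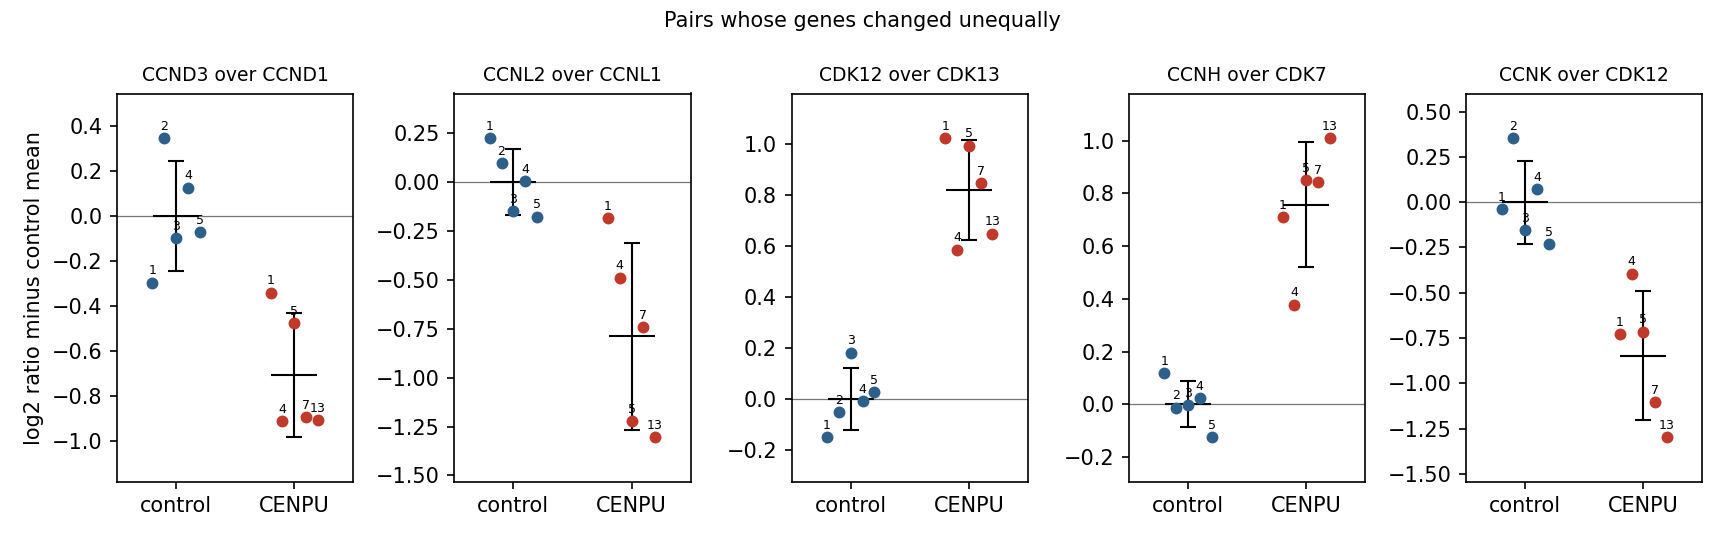
Log2 ratio of the first gene to the second in each clone, minus the mean of the control clones (y axis), for the 5 of 19 pairs of paralogues or partners with an adjusted exact permutation p under 0.05; points are clones with their numbers, bars the mean ± SD. The pairs were chosen after the values of single genes were seen. Each of the 5 has the smallest possible exact permutation p, 0.00794, which requires groups that do not overlap. The lack of overlap therefore follows from the selection. The gap is widest for CDK12 over CDK13, at 0.40.

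Of the 13 genes outside these roles 2 rose, 1 fell and 10 did not pass. That is 15.4% that rose and 7.69% that fell, against 5.31% and 4.79% of all genes. CCNG1 encodes cyclin G1, an atypical cyclin known as a binding partner of the phosphatase PP2A. CCNG1 had the largest difference of the 47 genes and was at 6.22, 6.48, 7.22, 7.84 and 8.24 in CENPU clones. In controls it was at 5.92, 4.88, 5.32, 5.30 and 5.79. No control reached the lowest CENPU clone, CENPU 1, and CENPU 7 and 13 were highest. The rise was 3.39-fold, a log2 difference of 1.76 (SE 0.36, limma adjusted p = 0.0145). Its paralogue CCNG2 differed by 0.53 and did not pass (limma adjusted p = 0.126), and CCNG1 changed relative to CCNG2 by 1.23 (exact two-sided permutation p = 0.0159, adjusted 0.0503).

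CCNI, the gene of the atypical cyclin I, had the smallest adjusted p of the 47 genes. It was at 9.59, 9.58, 9.83, 9.87 and 9.89 in CENPU clones and at 9.10, 8.41, 8.62, 9.02 and 9.15 in controls. The CENPU clones lay closer together than the controls (SD 0.15 and 0.33), and the gap to the highest control was 0.44. CCNI rose 1.86-fold, a log2 difference of 0.89 (SE 0.15, limma adjusted p = 0.00638). CDK5, a kinase activated by CDK5R1 and best known from neurons, was at 10.20, 10.07, 9.59, 9.84 and 9.96 in CENPU clones and at 10.53, 10.51, 10.51, 10.32 and 10.48 in controls. The groups did not overlap, and CDK5 fell 1.45-fold, by 0.54 on the log2 scale (SE 0.12, limma adjusted p = 0.0171). The calls of CCNG1, CCNI and CDK5 were kept whichever clone was left out. Without control 2, CENPU 7 and CENPU 13 together, CCNG1 differed by 1.06 and CCNI by 0.69 and both passed, while CDK5 differed by -0.51 and did not (limma adjusted p = 0.104).

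CDK14, a kinase that pairs with cyclin Y at the plasma membrane, had a difference of 0.89 that did not pass (limma adjusted p = 0.181). CENPU 5 stood highest at 9.44, CENPU 7 and 13 were at 8.24 and 8.33, CENPU 1 and 4 at 7.34 and 6.68, and controls at 6.76 to 7.48. CCNY, its cyclin, differed by 0.10. The remaining 7 genes were CCNJ, CCNO, known from multiciliated cells, CDK15, CDK20 and the PCTAIRE kinase genes CDK16, CDK17 and CDK18. They had differences from -0.21 to 0.17, and none of them passed in limma or had an unadjusted p under 0.05. Among genes that did not pass, the 5 with the largest absolute differences were CCNB1, CDK14, CCNT1, CDKN3 and CDK7.

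**Figure D4:**
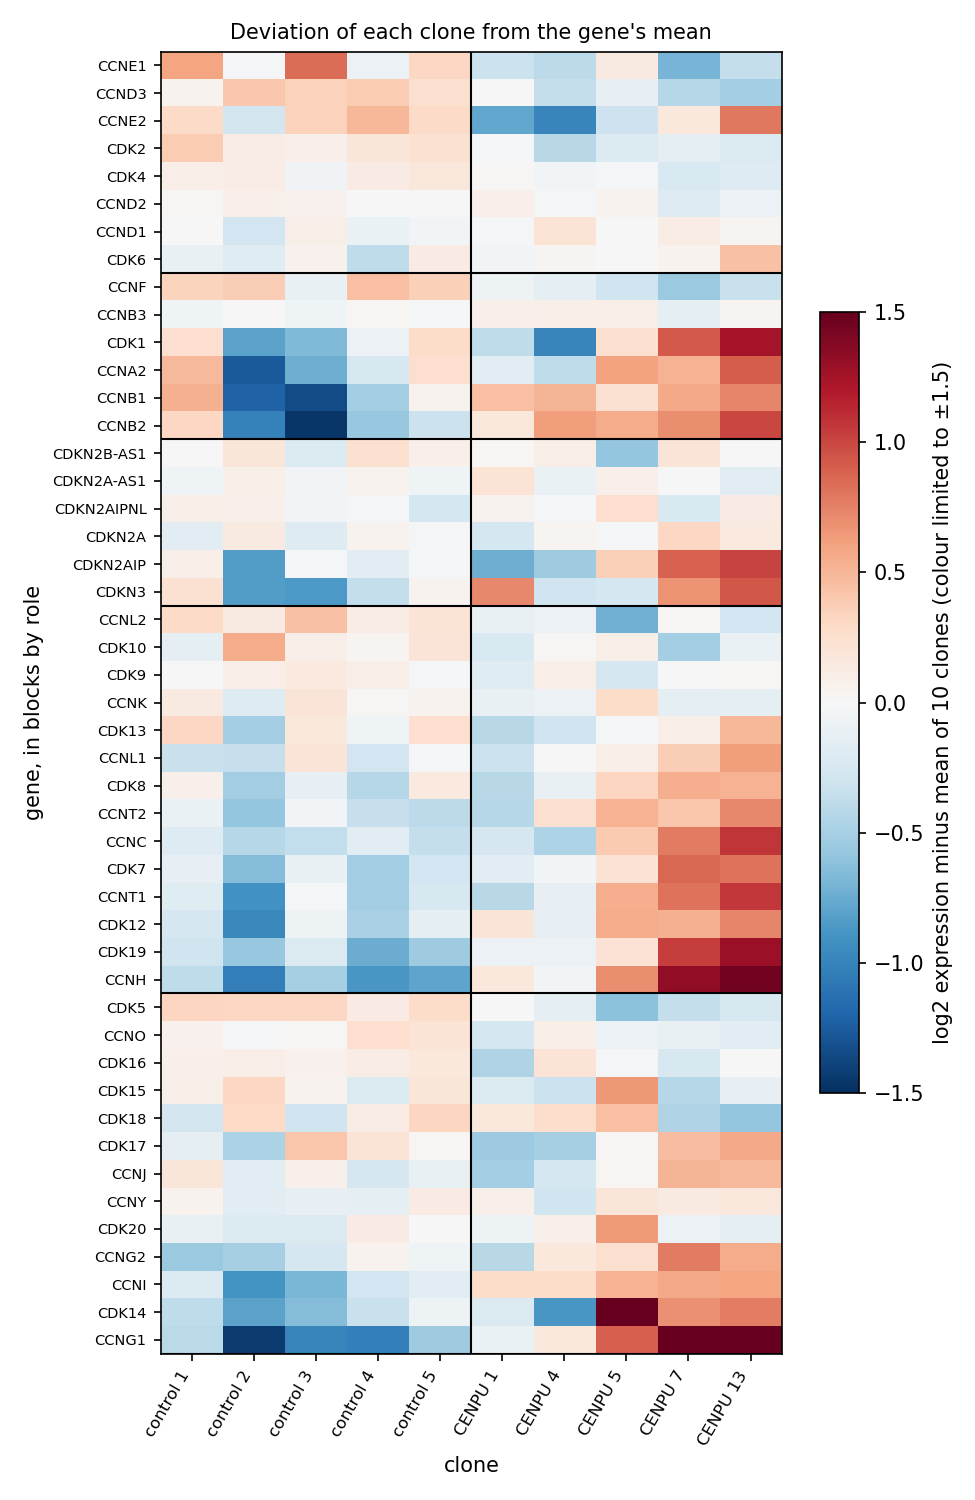
Deviation of each clone (columns) from the mean of the 10 clones, in log2 units by colour, for the 47 genes (rows, in blocks by role). CENPU 7 and CENPU 13 are red in most transcription genes and in CDK1, CCNA2 and CCNG1, CENPU 1 and CENPU 4 are pale or blue in many of the same genes, and control 2 is the bluest control column.

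The clones of a group differed among themselves along a shared order. CENPU 13 had the highest value of the 10 clones in 19 of the 47 genes, 40.4%, and in 20.8% of all genes. Control 2 had the lowest value in 14 genes, 29.8%, and in 20.7% of all genes. The standard deviation was larger among CENPU clones than among controls in 37 of 47 genes, 78.7%, against 67.9% of all genes. In the S, G2 and M block the spread was larger among CENPU clones in 2 of 6 genes, and the controls ranged from 6.62 to 8.49 in CCNB1.

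The same clones lay at the ends of a trend with genomic span. Over 11916 protein-coding genes, Spearman's correlation between the span of a gene and its deviation in a clone was 0.360 in CENPU 13, 0.316 in CENPU 7 and -0.355 in control 2. It was 0.197, -0.036 and -0.160 in CENPU 5, 4 and 1, and negative in every other control, from -0.279 in control 4 to -0.093 in control 1. Over the 45 protein-coding genes described here, span and log2 difference had a Spearman correlation of 0.294, and over all 11916 it was 0.327. Of the 21 with a span above the median of protein-coding genes, 26723.5 bp, 4 rose (CCNH, CDK12, CDK19 and CCNI) and 2 fell (CCND3 and CCNF), where 9.33% of all protein-coding genes above that span rose and 3.22% fell. Of the 24 with a shorter span, 2 rose (CCNG1 and CCNB2) and 3 fell (CDK2, CDK5 and CCNL2), where 3.12% of all protein-coding genes up to that span rose and 7.64% fell. With the trend removed from each array, 9 of the 11 calls were kept, those of CCNL2 and CDK2 were lost (limma adjusted p = 0.0522 and 0.0745) and CCNB1 passed (1.04, limma adjusted p = 0.0495). The part of the trend in these differences was not tested beyond that fit and the fit without the 3 clones.

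**Figure D5:**
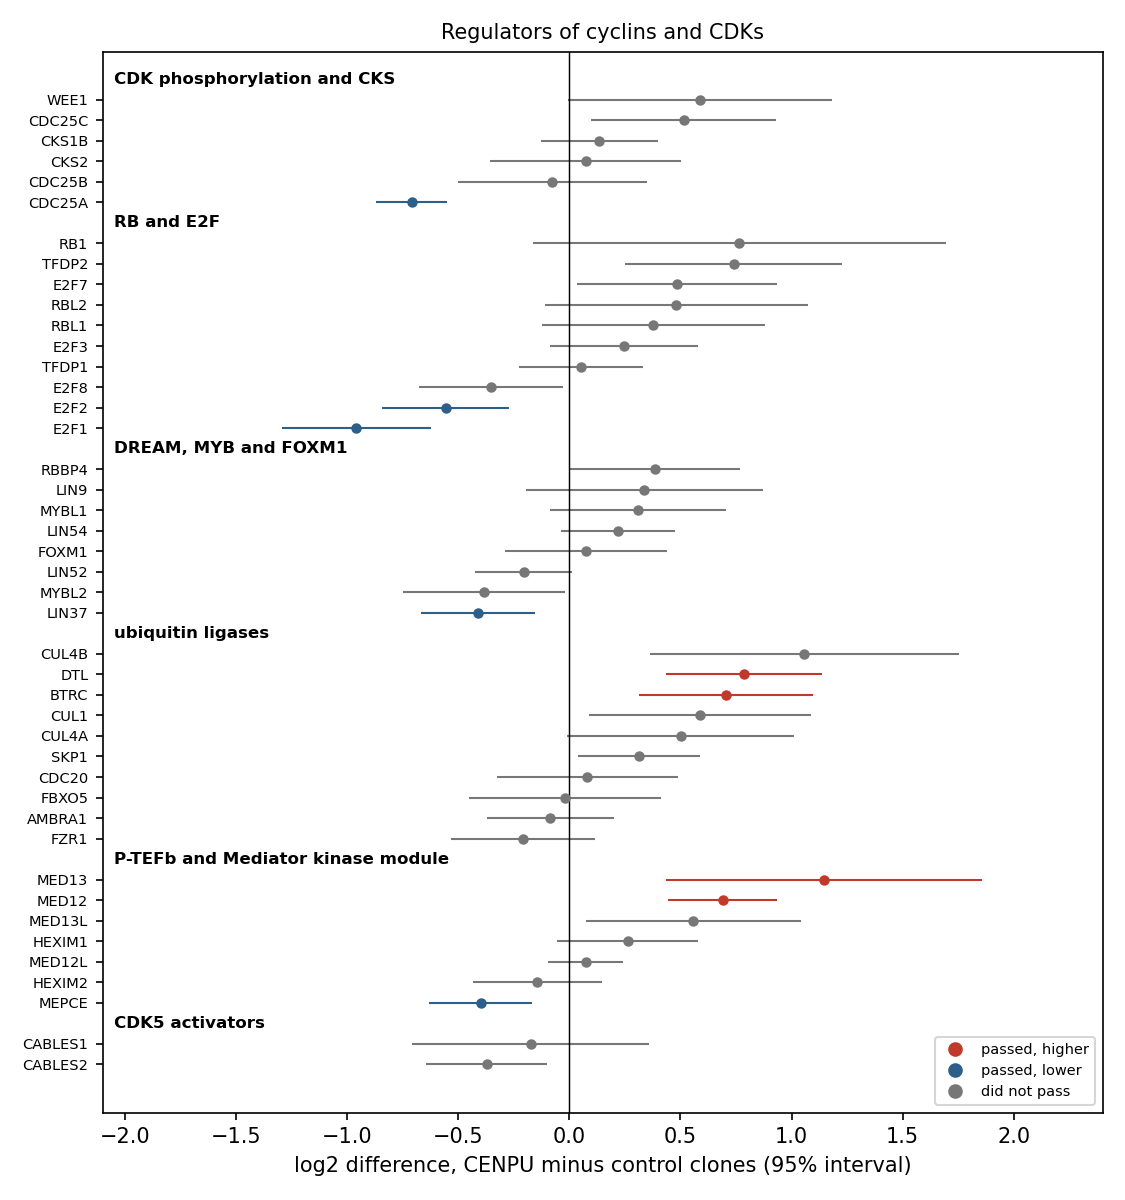
Log2 difference between CENPU and control clones (x axis) with its 95% interval from limma for the 43 measured genes of the regulator lists; red and blue mark genes that passed. E2F1 and CDC25A have the largest falls, and MED13 and DTL the largest rises among genes that passed.

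Genes that act on cyclins and CDKs were taken as 7 lists of 64 genes, of which 43 were measured. Of these, 4 rose, 5 fell and 34 did not pass, 20.9% passing against 10.1% of all genes. The median log2 difference of the 43 was 0.22, against -0.02 over all genes, and their median span was 49369 bp, against 20711.5 bp. In the list of CDK phosphorylation and CKS genes 1 of 6 passed. CDC25A, the phosphatase that activates CDK2 at the start of S phase, fell by 0.71 on the log2 scale, from 8.77 ± 0.04 to 8.06 ± 0.05 (SD, n = 5 each, limma adjusted p = 9.89e-04), and was 7.997 to 8.11 in CENPU clones against 8.73 to 8.84 in controls. CDC25C, WEE1 and CKS1B had differences of 0.51, 0.59 and 0.14 and did not pass. Of 10 RB and E2F genes 2 fell, E2F1 by 0.96 (limma adjusted p = 0.00506) and E2F2 by 0.56 (0.0236). Over that list 7 differences were above 0 and 3 below, with a median of 0.31. E2F1 and E2F2 are activating members of the family, and TFDP2, a dimer partner, differed by 0.74 and E2F8, a repressor, by -0.35, neither passing.

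In the list of DREAM, MYB and FOXM1 genes LIN37, a subunit of the MuvB core, fell by 0.41 (limma adjusted p = 0.0460), and 7 of 8 did not pass, among them MYBL2 (-0.39), RBBP4 (0.39) and LIN52 (-0.21). Of 10 ubiquitin ligase genes DTL and BTRC rose, by 0.78 and 0.71 (limma adjusted p = 0.0143 and 0.0313), while CUL4B (1.06) and CUL1 (0.59) did not pass. DTL is the substrate receptor through which CUL4 ligases degrade CDT1 and the inhibitor p21 in S phase, and BTRC that of the SCF ligase for WEE1 and beta-catenin. Of 7 measured genes around P-TEFb and the Mediator kinase module 2 rose and 1 fell. MED12, which activates the kinase of that module, rose by 0.69 (limma adjusted p = 0.00556), and MED13, which tethers the module to Mediator, rose by 1.15 (0.0457), as the kinase gene CDK19 did. MEPCE, which caps the 7SK RNA that holds P-TEFb inactive, fell by 0.40 (limma adjusted p = 0.0354), and MED13L (0.56) did not pass. Of the CDK5 activator list CABLES1 (-0.17) and CABLES2 (-0.37) were measured and did not pass in limma, CABLES2 with an unadjusted p under 0.05. The 7 core TFIIH genes were not analysed here. The calls of CDC25A, E2F1, DTL and MED12 were kept whichever single clone was left out, while those of E2F2, LIN37, BTRC, MEPCE and MED13 were each lost in 5 to 8 of the 10 fits without 1 clone (limma adjusted p up to 0.112), every time including those without CENPU 7, CENPU 13, control 2 and control 4. Without control 2, CENPU 7 and CENPU 13 together, CDC25A, E2F1 and MED12 passed, and DTL (0.54, limma adjusted p = 0.0912) and the other 5 did not. With the span trend removed, the calls of LIN37 and MEPCE were lost (limma adjusted p = 0.0680 and 0.0548). In that fit LIN52 (-0.41) and CUL4B (0.91) passed as well (limma adjusted p = 0.0180 and 0.0431).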

How the data were processed

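RNA of 10 PC-3 clones was hybridised to 1 Affymetrix array each. The deposited values are log2 expression values per probe set, made by the authors with RMA in Partek per the submitters' processing notes; no version is given in the sources used here, and the log2 scale follows from their range of 1.65 to 15.0. RMA brings the distributions of values on the arrays close to each other, so differences are relative to the bulk of probe sets. The array medians were not equal and lay between 4.62 and 4.76. Of 53617 probe sets, 16098 had 1 gene symbol in the platform table and 37519 had none. Gene IDs were matched to RefSeq on GRCh38.p14.

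The 2 groups were compared with limma 3.58.1 in R 4.3.3 (lmFit and eBayes) without covariates, and p-values were adjusted by Benjamini-Hochberg over the 16098 probe sets. Ratios of 19 gene pairs were compared by an exact two-sided permutation test over clones, for which the smallest p is 0.00794. The genes and lists were chosen with earlier results of these data known, and the pairs after the values of single genes were seen. Named genes were those that passed, a fixed list of the best known cyclin, CDK and inhibitor genes, the 5 others of largest absolute difference, and up to 4 regulators per list by smallest p; the other members are named to account for all 47, and CDK11A after its value was seen. Clones are separate isolates of 1 cell line, and p-values measure the spread between them. The number of arrays limits the precision. The fit was checked on simulated data. Promoter windows were the 250 bases before the start, and both strands were searched. Alternatives were other scalings, filters, thresholds, fits and sets of clones.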

Additional observations from a re-analysis of the deposited data

Results flagged for a closer look

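In 11 of the 96 groups of 5 clones examined (47 genes and CENPU in both groups), 1 clone stood apart by Dixon's criterion, a gap to the nearest clone above 0.71 of the group's range, where chance gives about 1 in 20. CENPU 5 stood apart in 4 genes. It was higher than the other CENPU clones in CCNK (8.54 against 8.12 to 8.18), CDK15 (4.28 against 3.20 to 3.50) and CDK20 (6.77 against 5.996 to 6.21), and lower in CDKN2B-AS1 (4.60 against 5.19 to 5.37). Control 2 was the low clone of its group in CCNE2 (6.10 against 6.65 to 6.86) and in CDKN2AIP (5.53 against 6.19 to 6.45). Of the genes that passed, CCNF had control 3 low (8.34 against 8.79 to 8.90) and CDK5 had control 4 low (10.3 against 10.48 to 10.53), in both cases toward the CENPU clones. CENPU 13 stood high in CDK6 (6.29 against 5.82 to 5.91), CENPU 4 low in CCNY (7.03 against 7.41 to 7.51), and CENPU 7 low in CCNB3 (2.85 against 3.04 to 3.10).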

How the results depend on the processing

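All 11 genes that passed kept the sign of their difference in every alternative run. Genes that did not pass could change sign: without control 2, CENPU 7 and CENPU 13 the difference of CDK1 was -0.32 and that of CDKN2AIP -0.27, neither passing. With 1 clone left out, 613 (without control 4) to 2471 (without CENPU 1) of all genes passed, with 3 to 10 cyclin and CDK genes higher, 2 to 5 lower and 4 to 13 regulators; the median difference was 0.07 to 0.16. At an adjusted p under 0.01, 253 genes passed, with 1 cyclin higher (CCNI), 0 lower and 3 regulators, and under 0.10, 2588 genes. Without control 2, CENPU 7 and CENPU 13, 470 genes passed, with 3 higher (CCNG1, CCNH and CCNI), 1 lower (CCNE2) and 3 regulators. With the span trend removed 3 were lower. Under quantile normalisation, with a median of -0.04 over all genes, CCNE1 passed as well. Clone numbers 1, 4 and 5 occur in both groups. Over genes, deviations from the group mean correlated between same-numbered clones at -0.379, 0.104 and 0.0227. For none of these numbers was the control of the same number the closest match. Whether same-numbered clones were handled together was not tested. With the number as a replicate block, which leaves those 6 clones as pairs, 55 genes passed in limma, with 0 higher, 0 lower and 0 regulators; 15 of 47 and 12 of 43 had an unadjusted p under 0.05. The pairs, compared by exact tests, have no blocked version.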
